A study of Mus musculus with 18 samples.

Results

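This account follows 10 genes of matricellular signalling and wound repair, Thbs1, Ccn1, Ccn2, Tnc, Has1, Tnfaip6, Cd44, Plaur, Lox and Ankrd1, in mouse liver after ischemia and reperfusion. They were picked by gene symbol out of the 56691 genes in the deposited RNA-seq table, and each symbol matched 1 gene. The mice were wild-type C57BL/6, and each of 3 groups has 6 libraries. The IR-Ori group had oridonin, a plant diterpenoid, in addition to ischemia and reperfusion (dose, route and timing not given in the sources used here). In both the IR-Ori and the IR group a clip on the portal triad cut the blood flow to the median and left lobes, about 70% of the liver, for 1 h, and the lobes were then reperfused for 6 h. The sham group had the anaesthesia and the laparotomy but no clamp. Which lobe was sampled is not given, nor whether each library is a separate animal, so p-values below measure the spread between these libraries.

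Matricellular proteins are secreted into the extracellular matrix, where they bind cell-surface receptors, growth factors and proteases rather than bear load. Thrombospondin 1 and the CCN proteins are immediate or early response genes in injured tissue, and Ccn1, Ccn2 and Ankrd1 are widely used as readouts of the mechanosensitive co-activators YAP and TAZ, which act through TEAD factors. Hyaluronan, the glycosaminoglycan made by hyaluronan synthases, is bound by CD44 on cells and remodelled by TSG-6, the product of Tnfaip6, while the urokinase receptor encoded by Plaur focuses plasmin formation at the cell surface. In liver these genes are known mainly from activated stellate cells, endothelium, injured hepatocytes and recruited myeloid cells.

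The libraries held 12770586 to 16536186 counts in IR-Ori, 12449529 to 16625908 in IR and 12755980 to 19798188 in sham livers. Mitochondrial genes took 14.1 to 32.0% of the counts in IR-Ori, 6.52 to 42.9% in IR and 10.3 to 42.8% in sham libraries. That share was under 15% in IR-Ori 5, in IR 4, IR 5 and IR 6, and in sham 1, sham 3 and sham 4. The 8 marker genes of hepatocytes summed to 27427 to 42719 FPKM in IR-Ori, 22869 to 33857 FPKM in IR and 14240 to 49067 FPKM in sham libraries, so the hepatocyte signal that the tissue label implies was present in all 18. Levels are given as the authors' FPKM (counts divided by exon length and by the library total, mitochondrial counts included). In whole-liver RNA, a change in the number of cells of a type and a change in RNA per cell cannot be told apart.

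The promoters of these genes are shown because several are classic targets of TEAD and of the stress-responsive AP-1 factors. RefSeq promoter sequences on GRCm38.p6, each running from 250 bases before to 50 bases after the transcription start, matched 7 of the 10 genes. Motifs were searched on both strands. AP-1 was searched as TGANTCA. For TEAD factors the search used the letters GGAATG. The TATA box was taken as TATAAA. The cyclic AMP response element (CRE) was searched as TGACGTCA. The CArG box of serum response factor was searched by its usual consensus. Printed below, 5′ to 3′ on the gene's strand, are the 4 promoters with an AP-1 or TEAD match, and capitals mark those matches.
Ccn1 (chr3:145649936-145650235, minus strand): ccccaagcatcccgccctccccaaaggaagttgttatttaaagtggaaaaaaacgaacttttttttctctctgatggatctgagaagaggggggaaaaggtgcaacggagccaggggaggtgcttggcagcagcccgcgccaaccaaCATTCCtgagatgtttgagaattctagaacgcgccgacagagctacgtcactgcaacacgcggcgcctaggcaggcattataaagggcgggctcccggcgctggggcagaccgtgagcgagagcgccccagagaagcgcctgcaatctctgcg
Tnfaip6 (chr2:52037863-52038162, plus strand): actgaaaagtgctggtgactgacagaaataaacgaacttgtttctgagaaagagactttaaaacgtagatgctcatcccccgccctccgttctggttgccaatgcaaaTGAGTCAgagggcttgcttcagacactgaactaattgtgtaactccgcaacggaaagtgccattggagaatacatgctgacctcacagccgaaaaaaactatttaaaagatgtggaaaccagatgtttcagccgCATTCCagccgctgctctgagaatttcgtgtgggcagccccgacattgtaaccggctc
Plaur (chr7:24462233-24462532, plus strand): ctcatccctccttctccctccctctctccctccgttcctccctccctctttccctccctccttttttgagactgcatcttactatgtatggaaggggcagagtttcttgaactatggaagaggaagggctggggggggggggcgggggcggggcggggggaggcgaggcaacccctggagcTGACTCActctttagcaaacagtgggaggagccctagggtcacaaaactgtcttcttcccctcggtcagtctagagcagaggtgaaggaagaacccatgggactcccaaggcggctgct
Ankrd1 (chr19:36119795-36120094, minus strand): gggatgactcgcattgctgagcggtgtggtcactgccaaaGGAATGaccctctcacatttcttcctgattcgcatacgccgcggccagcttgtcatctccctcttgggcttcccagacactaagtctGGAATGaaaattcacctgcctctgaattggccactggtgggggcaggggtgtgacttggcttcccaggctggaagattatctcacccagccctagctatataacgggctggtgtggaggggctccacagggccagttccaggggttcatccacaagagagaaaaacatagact

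The Ccn1 promoter had 1 TEAD match, on the opposite strand, whose first base stood at position -103 from the start site, and a TATAAA at -25. Tnfaip6 had both kinds, an AP-1 match at -142 and a TEAD match on the opposite strand at -8, and was the single promoter of the 7 to have both. Plaur had an AP-1 match at -69. Ankrd1 had 2 TEAD matches, at -210 and -123. None of the capitalised matches overlapped another searched motif. Among all 32851 mouse promoters of the same length, 7.81% held the AP-1 letters, 14.7% the TEAD letters, 13.6% TATAAA, 1.79% the CRE and 1.63% a CArG box. Elsewhere among the 7 genes, Has1 had a CRE, Tnc had a TATAAA, and no CArG box was found. These are letter matches and not measured binding.

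Most of these genes were higher after ischemia and reperfusion, and most were lower where oridonin had been given. With the 3 groups fitted together in edgeR's quasi-likelihood test (adjusted p under 0.05 over 14595 genes), 7 of the 8 genes with enough counts were higher in IR than in sham livers, against 5.52% of all genes tested, and 0 were lower, against 2.36%. Tnfaip6, Thbs1, Ccn1 and Plaur rose most, by 10.1 to 42.4-fold. In IR-Ori livers 6 of the same 8 genes were lower than in IR livers, against 3.01% of all genes tested, and 0 were higher, against 0.596%. The filter on low counts favours genes that are high in 1 group: Tnc, Tnfaip6 and Lox did not pass it when IR-Ori and sham livers alone were fitted. With all 10 genes in the fit and no filter, 8 were higher in IR than in sham livers, against 2.66% of 30479 genes, and 7 were lower in IR-Ori than in IR livers, against 1.54%. These comparisons share the IR libraries, so a high IR library pushes both folds. Has1 and Ankrd1 did not pass the filter on low counts and are described from their counts.

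**Figure D1:**
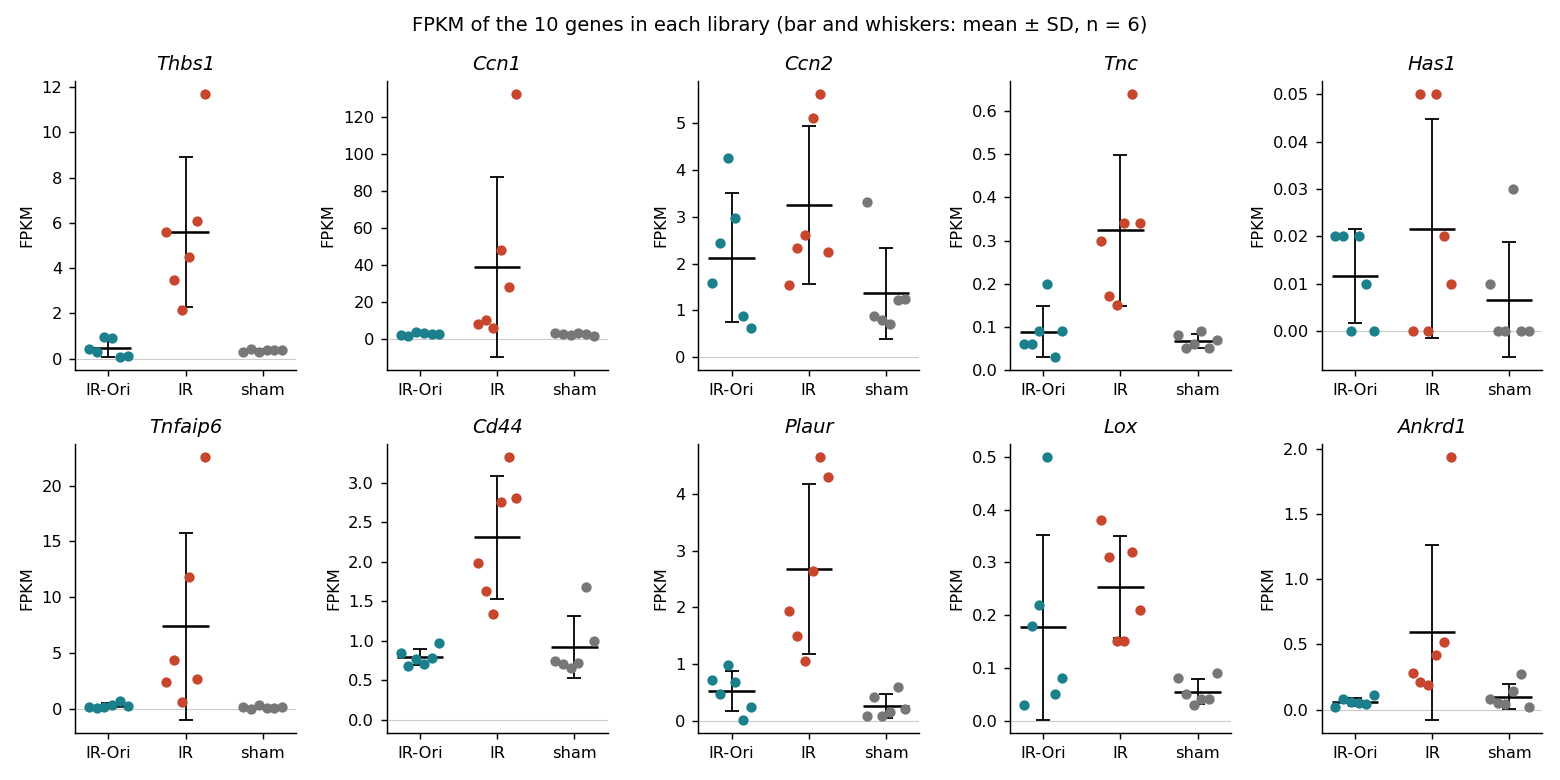
FPKM of the 10 genes (vertical axis, linear, scaled per panel) in each of the 6 IR-Ori, 6 IR and 6 sham libraries, 1 panel a gene, with points for libraries and bars and whiskers for the mean ± SD. All IR points stand above both other groups in the Thbs1, Ccn1 and Plaur panels. In the Tnc, Tnfaip6 and Lox panels IR stands above sham but overlaps IR-Ori. In the Cd44 and Ankrd1 panels IR stands above IR-Ori but overlaps sham, and in the Ccn2 and Has1 panels all 3 groups overlap.

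Among the matricellular proteins, Thbs1 (ENSMUSG00000040152, GRCm39 chromosome 2, 117942357 to 117957614, plus strand) encodes thrombospondin 1, a secreted glycoprotein of platelets, endothelium and stroma that activates latent TGF-beta. Its lowest, median and highest levels were 0.07, 0.35 and 0.97 FPKM in IR-Ori, 2.16, 5.03 and 11.69 FPKM in IR, and 0.28, 0.39 and 0.44 FPKM in sham livers. Every IR library lay above every library of the other groups, and the sham libraries lay close together while those of IR-Ori spread widely. IR 6 was the highest IR library and IR 3 the lowest. Thbs1 was 15.2-fold higher in IR than in sham livers (log2 fold change 3.93 ± 0.55 SE, adjusted p = 0.000637). It was lower in IR-Ori than in IR livers (log2 fold change -3.57 ± 0.54, adjusted p = 0.00179). Both calls were kept without any 1 library, with adjusted p of at most 0.00292 and 0.00985. Within IR-Ori, Thbs1 stood at 0.97 and 0.92 FPKM in IR-Ori 3 and IR-Ori 4, above all sham libraries, and at 0.07 and 0.10 FPKM in IR-Ori 5 and IR-Ori 6, below all of them.

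Ccn1 (ENSMUSG00000028195, chromosome 3, 145352731 to 145355736, minus strand), a CCN-family ligand of integrins, was the most abundant of the 10 genes per length in IR livers. Over the libraries, its lowest, median and highest levels were 1.38, 2.64 and 3.65 FPKM in IR-Ori, 5.90, 19.1 and 132.58 FPKM in IR, and 1.42, 2.76 and 3.34 FPKM in sham livers. IR stood apart from both other groups, whose ranges nearly coincided. The IR libraries themselves covered a wide range, with 5.90 to 10.13 FPKM in IR 1 to IR 3 and 28.12 to 132.58 FPKM in IR 4 to IR 6. Ccn1 was 15.2-fold higher in IR than in sham livers (log2 fold change 3.93 ± 0.64, adjusted p = 0.00178) and lower in IR-Ori than in IR livers (-3.90 ± 0.64, adjusted p = 0.00404). Without IR 6 the log2 fold changes were 2.82 (adjusted p = 0.0012) and -2.79 (adjusted p = 0.0028). With limma on log2(FPKM + 1) and no filter, the Ccn1 call in IR-Ori against IR livers was lost.

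Tnc (ENSMUSG00000028364, chromosome 4, 63878022 to 63965252, minus strand) encodes tenascin C, a large matrix glycoprotein that appears transiently at wounds. It was scarce throughout, with 0.03, 0.075 and 0.20 FPKM as lowest, median and highest in IR-Ori, 0.15, 0.32 and 0.64 FPKM in IR, and 0.05, 0.065 and 0.09 FPKM in sham livers. IR lay wholly above sham, and a single IR-Ori library, IR-Ori 4, reached into the IR range. Tnc was 4.48-fold higher in IR than in sham livers (log2 fold change 2.16 ± 0.43, adjusted p = 0.005). The lower level in IR-Ori than in IR livers (-1.76 ± 0.42, adjusted p = 0.0266) lost its call without any 1 of IR 4, IR 5, IR 6, IR-Ori 1, IR-Ori 2, IR-Ori 3 and IR-Ori 6 (adjusted p up to 0.0765), and without the sham libraries in the fit (adjusted p = 0.0701).

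Ccn2 (ENSMUSG00000019997, chromosome 10, 24471340 to 24474581, plus strand), the connective tissue growth factor gene and the closest relative of Ccn1 in the set, was the exception among the matricellular genes. The lowest, median and highest levels of Ccn2 were 0.63, 2.01 and 4.25 FPKM in IR-Ori, 1.54, 2.48 and 5.62 FPKM in IR, and 0.70, 1.06 and 3.31 FPKM in sham livers. All groups overlapped, with sham 1 far above the other sham libraries, IR 4 and IR 5 highest in IR, and IR-Ori 5 and IR-Ori 6 lowest in IR-Ori. The log2 fold change was 1.11 ± 0.46 for IR against sham (adjusted p = 0.143, 95% interval 0.16 to 2.06) and -0.47 ± 0.45 for IR-Ori against IR (adjusted p = 0.525, interval -1.41 to 0.47). Without sham 1 it passed the test for IR against sham, at a log2 fold change of 1.57 (adjusted p = 0.0347). An opposite-strand gene that overlaps Ccn2, Gm15270, had at most 12 counts in a library, and whether the counting used strand is not given.

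Among the hyaluronan genes, Tnfaip6 (ENSMUSG00000053475, chromosome 2, 51928021 to 51946698, plus strand), whose product TSG-6 is secreted under inflammatory signals and couples heavy chains to hyaluronan, had the largest fold of the 8 genes tested. Tnfaip6 had lowest, median and highest levels of 0.13, 0.24 and 0.72 FPKM in IR-Ori, 0.63, 3.57 and 22.56 FPKM in IR, and 0, 0.145 and 0.38 FPKM in sham livers. IR lay above sham throughout, with IR 6 and IR 4 far above the rest, and IR-Ori 5 alone stood above the lowest IR library, IR 3. Tnfaip6 was 42.4-fold higher in IR than in sham livers (log2 fold change 5.41 ± 0.79, adjusted p = 0.000824) and lower in IR-Ori than in IR livers (-4.57 ± 0.75, adjusted p = 0.00404). Without IR 6 these log2 fold changes were 4.54 (adjusted p = 0.001) and -3.70 (adjusted p = 0.0057). The Tnfaip6 call in IR-Ori against IR livers was lost with limma on log2(FPKM + 1) and no filter.

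Cd44 (ENSMUSG00000005087, chromosome 2, 102641486 to 102732010, minus strand), the main cell-surface hyaluronan receptor and abundant on leukocytes, had the smallest log2 fold change of the genes called in each comparison. Cd44 ran through lowest, median and highest levels of 0.68, 0.775 and 0.97 FPKM in IR-Ori, 1.34, 2.38 and 3.33 FPKM in IR, and 0.65, 0.73 and 1.68 FPKM in sham livers. IR and IR-Ori did not overlap, whereas sham 5 lay above the 2 lowest IR libraries. Cd44 was 2.41-fold higher in IR than in sham livers (log2 fold change 1.27 ± 0.25, adjusted p = 0.00548) and lower in IR-Ori than in IR livers (-1.49 ± 0.26, adjusted p = 0.00529). Has1 (ENSMUSG00000003665, chromosome 17, 18063585 to 18075467, minus strand), a hyaluronan synthase, was close to undetected, with 4 counts over all IR-Ori, 9 over all IR and 3 over all sham libraries. Its groups overlapped, and a difference was not detectable at this depth (without the filter on low counts, adjusted p = 0.504 for IR against sham and 0.652 for IR-Ori against IR).

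Plaur (ENSMUSG00000046223, chromosome 7, 24161909 to 24175393, plus strand) encodes the urokinase receptor, carried by neutrophils, monocytes and migrating epithelium. Its lowest, median and highest levels were 0.02, 0.58 and 0.99 FPKM in IR-Ori, 1.05, 2.29 and 4.65 FPKM in IR, and 0.08, 0.18 and 0.60 FPKM in sham livers. In FPKM, IR lay above both other groups in every library, though IR-Ori 3 held 43 counts and IR 3 held 41. On the TMM-scaled CPM of the fit, IR-Ori 3 lay slightly above IR 3 (0.45 and 0.41 in SD units). IR-Ori 5 held a single count of Plaur. It was 10.1-fold higher in IR than in sham livers (log2 fold change 3.34 ± 0.62, adjusted p = 0.00346). The lower level in IR-Ori than in IR livers (-2.28 ± 0.58, adjusted p = 0.0329) lost its call without any 1 of IR 4, IR 5, IR 6, IR-Ori 1, IR-Ori 2, IR-Ori 4 and IR-Ori 6 (adjusted p up to 0.0876), and without the sham libraries in the fit (adjusted p = 0.0591).

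Lox (ENSMUSG00000024529, chromosome 18, 52649139 to 52662939, minus strand) encodes lysyl oxidase, the copper enzyme that starts the crosslinking of collagen and elastin. It had few counts, with 0.03, 0.13 and 0.50 FPKM as lowest, median and highest in IR-Ori, 0.15, 0.26 and 0.38 FPKM in IR, and 0.03, 0.045 and 0.09 FPKM in sham livers. IR lay wholly above sham, and IR-Ori ran from the sham level to above the highest IR library, with IR-Ori 4 on top at 33 counts and IR-Ori 1 at the bottom with 2 counts. Lox was 4.41-fold higher in IR than in sham livers (log2 fold change 2.14 ± 0.57, adjusted p = 0.0267), but leaving out IR 5, sham 3, sham 4 or sham 5 took it past the threshold (adjusted p up to 0.0632). For IR-Ori against IR the log2 fold change was -0.48 ± 0.52 (adjusted p = 0.576, 95% interval -1.58 to 0.61), and without IR-Ori 4 it was -1.10 (adjusted p = 0.214). An opposite-strand gene that overlaps Lox, Gm41724, had 3 counts over all libraries.

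Ankrd1 (ENSMUSG00000024803, chromosome 19, 36089361 to 36097499, minus strand), the single nuclear protein of the set and a stretch-responsive ankyrin-repeat factor, had 1 to 4 counts per library in IR-Ori, 8 to 88 in IR and 1 to 11 in sham livers. Its lowest, median and highest levels were 0.02, 0.055 and 0.11 FPKM in IR-Ori, 0.19, 0.35 and 1.94 FPKM in IR, and 0.02, 0.065 and 0.27 FPKM in sham livers. Every IR library stood above every IR-Ori library, IR 6 stood far above the other IR libraries, and sham 5 reached into the IR range. In the fit without the filter on low counts, which tested 30479 genes, its log2 fold change was 2.56 for IR against sham (adjusted p = 0.0206, with 2.66% of genes higher) and -3.21 for IR-Ori against IR (adjusted p = 0.0103, with 1.54% of genes lower). With limma on log2(FPKM + 1) and no filter the adjusted p were 0.181 and 0.188. An unnamed opposite-strand gene that overlaps Ankrd1 had at most 3 counts in a library and 8 over all libraries. Whether the counting used strand is not given, and Ankrd1 itself had few counts.

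**Figure D2:**
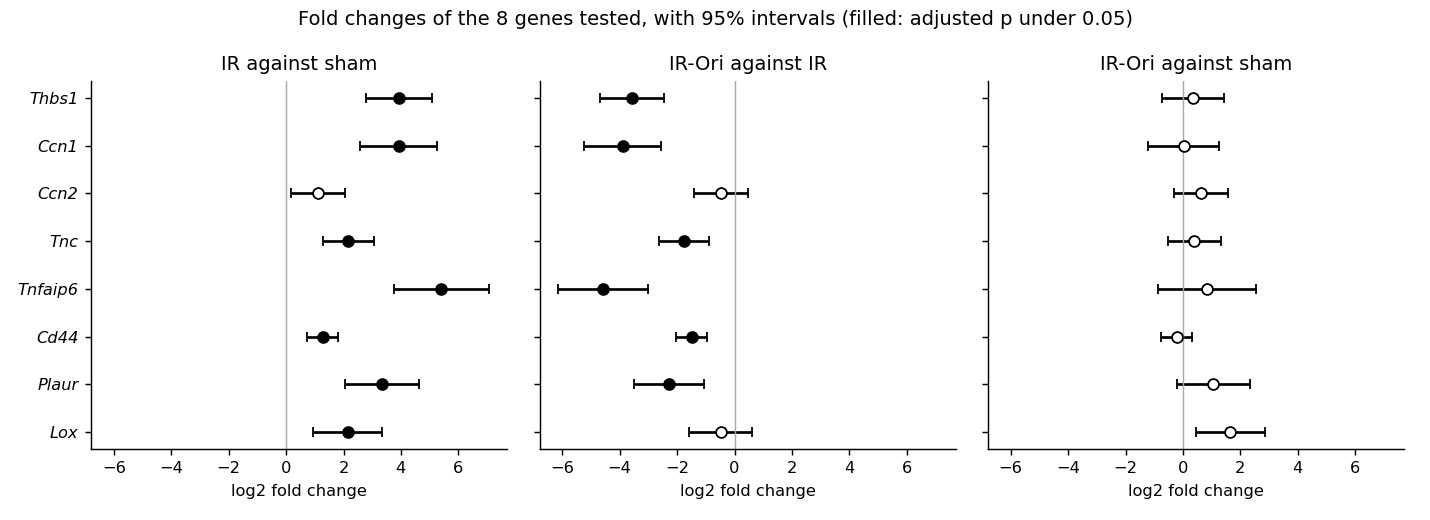
Log2 fold changes (horizontal axis) of the 8 genes tested, with 95% intervals from edgeR, in 3 panels for IR against sham, IR-Ori against IR and IR-Ori against sham, filled where the adjusted p is under 0.05. Filled points stand to the right of 0 for 7 genes in the IR against sham panel and to the left for 6 genes in the IR-Ori against IR panel, and all points of the IR-Ori against sham panel are open.

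Counted by library ranges, 6 of the 10 genes (Thbs1, Ccn1, Tnc, Tnfaip6, Plaur and Lox) had every IR library above every sham library, against 2.04% of all genes tested. For IR-Ori against IR, 5 of the 10 (Thbs1, Ccn1, Cd44, Plaur and Ankrd1) had every IR-Ori library below every IR library, against 1.1% of all genes tested. Both shares cover only genes that passed the filter on low counts, which Has1 and Ankrd1 of the 10 did not. On the scaled CPM, Plaur leaves the count for IR-Ori against IR, as given above, and the other tested genes in these 2 counts stay. Tnfaip6 was lower in IR-Ori in 35 of the 36 pairs of an IR-Ori and an IR library, and Tnc in 34 of 36. Ccn2 was lower in 24 and Lox in 25 of the 36 pairs.

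Set against sham, IR-Ori livers showed no call for any of the 8 genes, of which Tnc, Tnfaip6 and Lox entered the test through the IR libraries, and edgeR called 0 of the 14595 genes tested in this comparison in either direction (a background of 0%). At an unadjusted p under 0.05 edgeR counted 1460 genes, and DESeq2 called 38 genes, none of them among the 8, while limma called 0. The intervals remain wide: the 95% interval of the log2 fold change was -0.73 to 1.45 for Thbs1, -1.20 to 1.26 for Ccn1, -0.87 to 2.54 for Tnfaip6 and -0.75 to 0.31 for Cd44. Lox had the lowest p of the 8, with a log2 fold change of 1.66 ± 0.58 (unadjusted p = 0.0097, adjusted p = 0.466), which was 1.01 without IR-Ori 4. Plaur had 1.06 ± 0.61 (adjusted p = 0.507) and Ccn2 0.64 ± 0.45 (adjusted p = 0.561). No gene of the 10 had its IR-Ori libraries all above or all below the sham libraries, against 0.171% and 0.0343% of all genes tested. These values do not show that the IR-Ori level equals the sham level.

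**Figure D3:**
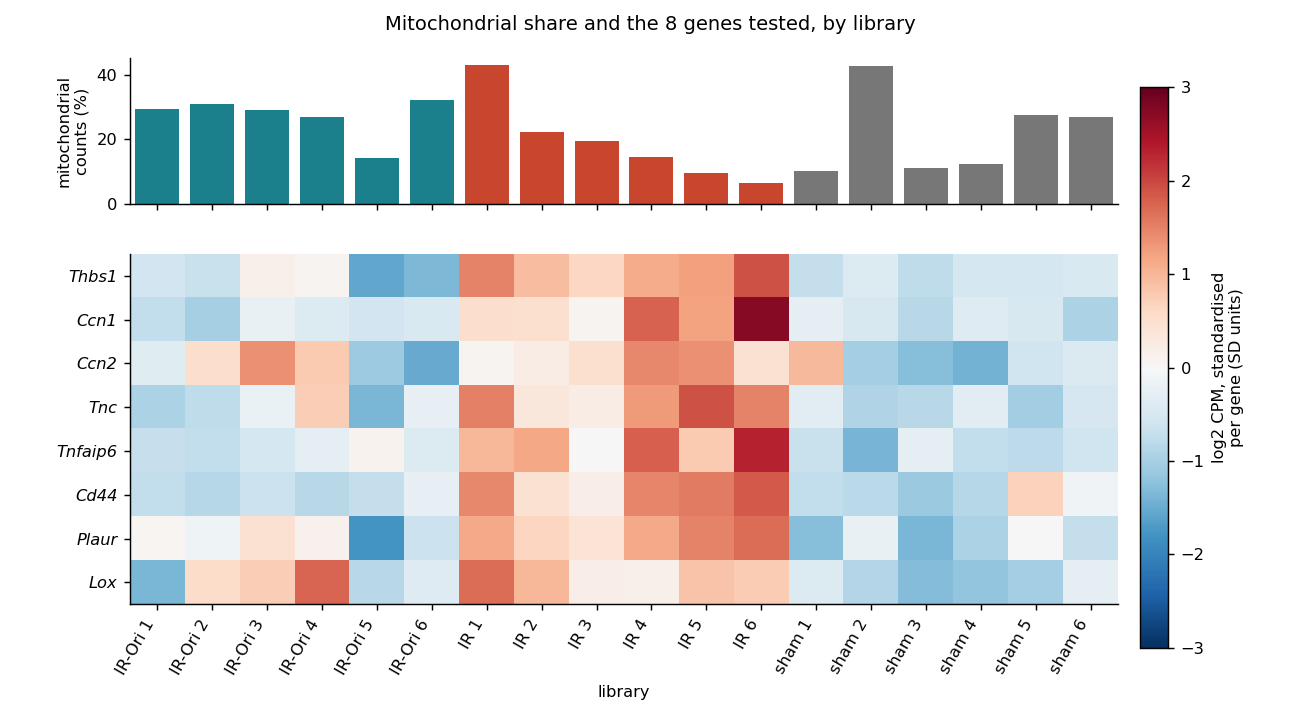
The upper panel plots the mitochondrial share of counts (%, bars) in each of the 18 libraries, and the lower panel is a heat map of log2 CPM standardised per gene (SD units, colour) for the 8 genes tested, with IR-Ori libraries to the left, IR in the middle and sham to the right. IR 6 is highest of the IR libraries in the rows of Thbs1, Ccn1, Tnfaip6, Cd44 and Plaur, and IR-Ori 3 and IR-Ori 4 are the highest IR-Ori libraries in the rows of Thbs1, Ccn2, Plaur and Lox.

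The genes differed in which IR library was highest in FPKM. IR 6 held the highest FPKM for Thbs1, Ccn1, Tnfaip6 and Ankrd1, and IR 5 for Ccn2, Tnc, Cd44 and Plaur. IR 3 held the lowest value, ties included, for 9 of the 10 genes. Within IR-Ori, IR-Ori 3 was highest for 4 and IR-Ori 4 for 3 of the 10 genes. IR 4 to IR 6 are also the IR libraries with a mitochondrial share under 15%. All 3 of them lay above IR 1 to IR 3 for Ccn1, with the values given above, for Plaur, at 2.64 to 4.65 against 1.05 to 1.94 FPKM, and for Cd44, at 2.76 to 3.33 against 1.34 to 1.99 FPKM. The same held for Tnc, at 0.34 to 0.64 against 0.15 to 0.30 FPKM, and for Ankrd1, at 0.42 to 1.94 against 0.19 to 0.28 FPKM. It did not hold for Thbs1, Ccn2, Has1, Tnfaip6 and Lox. The library totals behind the FPKM include mitochondrial counts, which were 42.9% of the counts in IR 1. On the scaled CPM of the heat map IR 1 stood level with IR 4 for Plaur (1.13 SD units in both) and near it for Cd44 (1.45 and 1.48), whereas Ccn1 kept the separation, with at most 0.53 in IR 1 to IR 3 and at least 1.21 in IR 4 to IR 6. For Tnc, IR 1 stood above IR 4 on that scale (1.51 and 1.27), and Ankrd1 is not in the heat map.

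With the mitochondrial share as a covariate 7 genes were still called higher in IR than in sham and 6 lower in IR-Ori than in IR livers. Within groups, Tnfaip6 was lower where the share was larger (-0.07 log2 units per percentage point, adjusted p = 0.0176), and the other 7 did not pass that test, while 2898 of all genes tested were higher and 3356 lower with the share. Among libraries with a share of 15% or more, 0 of the 8 genes were called in either comparison, where 14 and 15 of all genes were called. There IR 1 to IR 3 against sham 2, sham 5 and sham 6 gave log2 fold changes of 3.22 for Thbs1 (adjusted p = 0.089), 1.75 for Ccn1 (adjusted p = 0.089), 4.46 for Tnfaip6 (adjusted p = 0.0714) and 0.57 for Cd44 (adjusted p = 0.46). IR-Ori against IR in those libraries gave -2.83 for Thbs1 (adjusted p = 0.0603), -1.59 for Ccn1 (adjusted p = 0.0755), -3.43 for Tnfaip6 (adjusted p = 0.0603) and -1.28 for Plaur (adjusted p = 0.396). All 3 of these IR libraries still lay above all 6 sham libraries for Thbs1, Ccn1, Tnc, Tnfaip6, Plaur and Lox, but 1 of 3 did for Cd44 and for Ankrd1. Among libraries under 15%, IR 4 to IR 6 against sham 1, sham 3 and sham 4 gave 4.50 for Thbs1 (adjusted p = 0.00526), 4.65 for Ccn1 (adjusted p = 0.00932), 1.95 for Cd44 (adjusted p = 0.00603) and 5.07 for Plaur (adjusted p = 0.00332). In these libraries Lox missed the threshold, at 2.04 (adjusted p = 0.0554), as did Ccn2 at 1.24 (adjusted p = 0.221), while Tnc had 2.34 (adjusted p = 0.0153) and Tnfaip6 5.73 (adjusted p = 0.0102).

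The wider pathway was described with 9 lists of 120 related genes, 103 of them tested. In IR against sham livers 21 were called higher and 0 lower, and in IR-Ori against IR livers 10 were called lower and 0 higher. As shares of the 103 these are to be read against 5.52% of all genes tested for higher in IR against sham and 3.01% for lower in IR-Ori against IR. The list of matrix metalloproteinases and their inhibitors held the most calls, with 9 of 13 tested genes higher in IR than in sham livers (median log2 fold change 2.57) and 3 of 13 lower in IR-Ori than in IR livers (median -1.83). The stromelysin Mmp3 rose by 4.88 ± 0.75 on the log2 scale in IR against sham livers (adjusted p = 0.00112) and was lower in IR-Ori than in IR livers at -3.29 ± 0.66 (adjusted p = 0.0117). Mmp3 had few counts, with 17 over all IR-Ori, 183 over all IR and 6 over all sham libraries. The neutrophil collagenase Mmp8 rose by 4.39 ± 0.81 (adjusted p = 0.00346) and reached 5.37 without sham 6, and Mmp3 reached 5.89 without sham 1. The collagenase Mmp13 was lower in IR-Ori than in IR livers at -5.26 ± 1.02 (adjusted p = 0.0105), and at -3.85 without IR 4 or -5.92 without IR-Ori 1. IR 4 held 558 of the 854 Mmp13 counts of the IR libraries. Mmp13 ran from 0 to 0.30 FPKM in IR-Ori, 0.17 to 16.77 FPKM in IR and 0 to 0.29 FPKM in sham livers, so the groups overlapped. The aggrecanase Adamts1 had 2.57 ± 0.48 in IR against sham livers (adjusted p = 0.0036) and -1.83 ± 0.47 in IR-Ori against IR livers (adjusted p = 0.0342). Without IR 6 these were 1.91 (adjusted p = 0.0065) and -1.18 (adjusted p = 0.109), and the second call was also lost without any 1 of IR 4, IR 5, IR-Ori 1, IR-Ori 2, IR-Ori 3 and IR-Ori 6.

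Other matricellular proteins had no edgeR call. Of 14 listed, 7 were tested and 0 were called in either comparison, with median log2 fold changes of -0.27 for IR against sham and -0.35 for IR-Ori against IR. Sparc, a collagen-binding matricellular protein, had 0.39 ± 0.29 (adjusted p = 0.442) and -0.91 ± 0.29 (adjusted p = 0.078) in these comparisons. In IR-Ori against IR livers it passed with DESeq2 (adjusted p = 0.0403) and with the compared groups alone (adjusted p = 0.0388). By library ranges, 3 of the 14, Sparc, Spp1 and the untested Ccn4, had every IR-Ori library below every IR library, against 1.1% of all genes tested, and Ccn4 had every IR library above every sham library. Sparc ran from 3.45 to 6.17 FPKM in IR-Ori and from 7.46 to 15.21 FPKM in IR livers, and Spp1 (osteopontin) from 8.79 to 34.19 FPKM in IR-Ori and from 37.17 to 62.49 FPKM in IR livers. These 3 were named after their values were seen, and their ranges were not examined on the scaled CPM. A narrow gap such as that of Spp1 can close on that scale, as that of Plaur did. Fibrillar collagens and fibronectin likewise had 0 of 7 called in either, with medians of -0.24 and 0.27. The lowest p among them belonged to Col5a1, at -0.33 ± 0.29 for IR against sham (adjusted p = 0.531), and to Vtn, at 0.43 ± 0.24 for IR-Ori against IR (adjusted p = 0.261).

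Of the hyaluronan list, 3 of 13 tested genes were higher in IR than in sham livers and 1 was lower in IR-Ori than in IR livers. Vcan, the hyaluronan-binding proteoglycan versican, was called in both, at 3.37 ± 0.57 (adjusted p = 0.00211) and -2.60 ± 0.54 (adjusted p = 0.0144). It was scarce, averaging 0.077 FPKM in IR-Ori, 0.502 FPKM in IR and 0.047 FPKM in sham livers. Its call in IR-Ori against IR livers was lost with limma without a filter, with a replicate block and among libraries with a mitochondrial share of 15% or more. Lyve1, an endothelial hyaluronan receptor, rose by 2.46 ± 0.58 in IR against sham livers (adjusted p = 0.0148), and Cemip2, which takes part in hyaluronan breakdown, by 1.30 ± 0.30 (adjusted p = 0.0126). Of the other hyaluronan synthases, Has2 had 0 counts in every library and Has3 averaged 0.14 FPKM in IR-Ori, 0.118 FPKM in IR and 0.12 FPKM in sham livers.

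Of the 5 plasminogen activation genes tested and reported here, 0 were called in either comparison. Plat, the tissue plasminogen activator, had the lowest p of these in both, with 2.49 ± 0.77 in IR against sham livers (adjusted p = 0.0518) and -1.64 ± 0.73 in IR-Ori against IR livers (adjusted p = 0.181). Plat passed in IR against sham livers without IR 2 (adjusted p = 0.0488) or without IR 3 (adjusted p = 0.0331). It also passed there with scaling by total counts only, with DESeq2, with the mitochondrial share as covariate and among libraries under a share of 15%. For the crosslinking list, which Lox belongs with, 3 of 12 genes were higher in IR than in sham livers and 0 were lower in IR-Ori than in IR livers. Transglutaminase Tgm2 rose by 1.60 ± 0.29 (adjusted p = 0.00306), and the Lox relatives Loxl4 and Loxl2 had 1.58 ± 0.41 (adjusted p = 0.0242) and 1.10 ± 0.32 (adjusted p = 0.0389). In IR-Ori against IR livers the prolyl hydroxylase P4ha2 had the lowest p of this list, at -0.85 ± 0.24 (adjusted p = 0.0544). The absence of calls there depended on the setting. P4ha2 passed without IR 1, IR 2 or IR-Ori 5, left out 1 at a time, and with DESeq2. Tgm2, at -0.98, passed without IR 1, IR 2, IR 3 or IR-Ori 2, with scaling by total counts only and with DESeq2. Loxl2 passed with DESeq2. The Loxl4 call in IR against sham livers was lost on leaving out IR 4, sham 2, sham 4 or sham 6 (largest adjusted p = 0.0571). That of Loxl2 in the same comparison was lost without any 1 of the libraries compared but IR 2 (adjusted p up to 0.0882).

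Of 17 tested YAP and TEAD targets other than Ccn1, Ccn2 and Ankrd1, 1 was higher in IR than in sham livers and 2 were lower in IR-Ori than in IR livers, with medians of 0.10 and -0.33. The 1 of 17 is near the 5.52% of all genes tested. Gadd45a, a stress and growth-arrest gene, was called in both, at 3.83 ± 0.71 (adjusted p = 0.00347) and -4.20 ± 0.73 (adjusted p = 0.00533), and at 2.47 and -2.84 without IR 6. Tgfb2, a TGF-beta ligand, was lower in IR-Ori than in IR livers at -2.27 ± 0.60 (adjusted p = 0.0407, up to 0.13 without 1 library). Of the TGF-beta pathway, 4 of 17 were higher in IR than in sham livers, among them the inhibitory Smad7 at 1.27 ± 0.23 (adjusted p = 0.00346) and the corepressors Tgif1 at 1.17 ± 0.20 (adjusted p = 0.00211) and Skil at 1.38 ± 0.32 (adjusted p = 0.0128). In IR-Ori against IR livers 3 of 17 were lower, the ligand Tgfb1 at -1.21 ± 0.27 (adjusted p = 0.0219), the decoy receptor Bambi at -1.03 ± 0.26 (adjusted p = 0.0333) and Tgif1 at -0.75 ± 0.19 (adjusted p = 0.0362). Each of these 3 calls was lost without at least 5 of the 12 libraries compared, taken 1 at a time (adjusted p up to 0.072 for Tgfb1, 0.0954 for Bambi and 0.101 for Tgif1). Of 12 integrins and related receptors, 1 was called in each comparison, near the 5.52% and 3.01% of all genes tested, the integrin subunit Itgav, at 1.23 ± 0.32 (adjusted p = 0.0229, up to 0.0732 without 1 library) and -1.29 ± 0.32 (adjusted p = 0.0304, up to 0.0939 without 1 library).

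**Figure D4:**
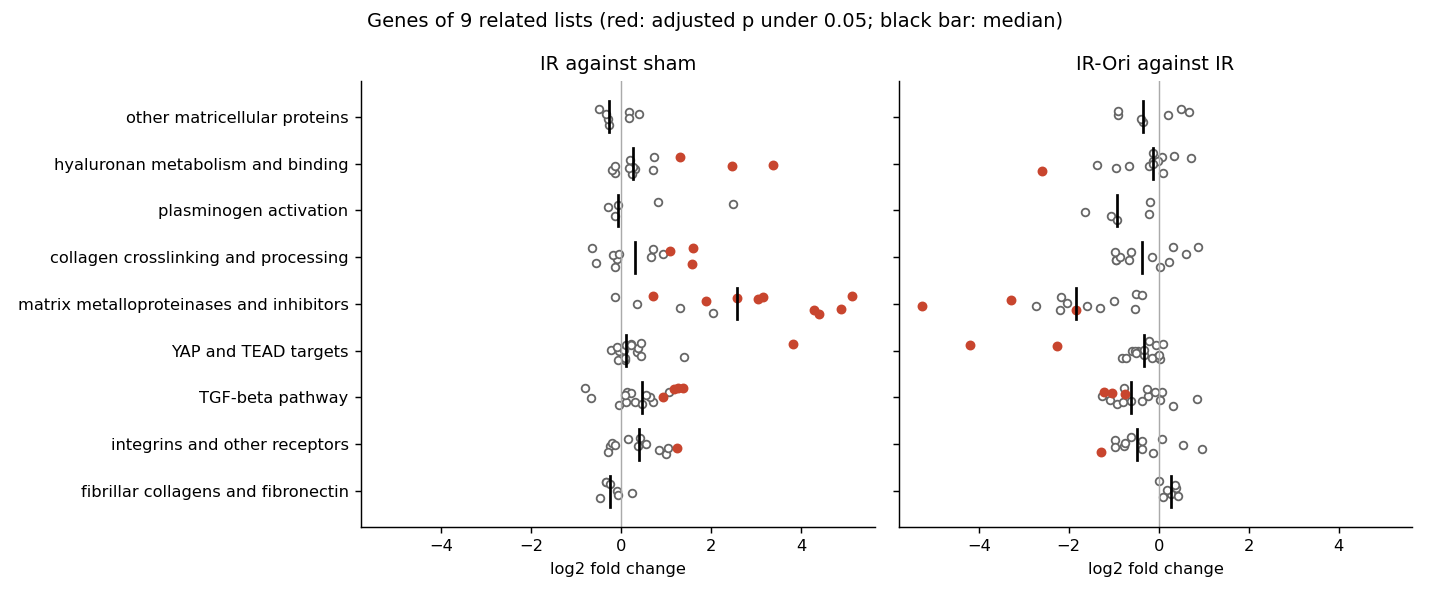
Log2 fold changes (horizontal axis) of the tested genes in 9 related lists, 1 row a list, with the IR against sham panel on the left and the IR-Ori against IR panel on the right. Points are genes, red where the adjusted p is under 0.05, and black bars are medians. The metalloproteinase row has the median farthest from 0, at 2.57 on the left and -1.83 on the right, while the rows of other matricellular proteins, of plasminogen activation and of fibrillar collagens hold no red point.

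Markers of other cell types moved with these genes in part. Counts of called markers are to be read against 5.52% of all genes tested for higher in IR against sham. For lower in IR-Ori against IR that share was 3.01%. Of the 10 neutrophil markers 7 were tested, and all 7 were higher in IR than in sham livers while 2 were lower in IR-Ori than in IR livers. The summed level of the 10 ranged from 7.68 to 63.34 FPKM in IR-Ori, from 67.62 to 306.88 FPKM in IR and from 3.86 to 26.41 FPKM in sham livers, so the IR sums did not overlap either group, narrowly for IR-Ori. Taken singly, 6 of the 10 had every IR library above every sham library, against 2.04% of all genes tested. But 0 of the 10 had every IR-Ori library below every IR library, against 1.1%. Of the 8 markers of monocytes and recruited macrophages 7 were tested, with 5 higher in IR than in sham livers and 6 lower in IR-Ori than in IR livers, and sums of 6.93 to 23.33 FPKM in IR-Ori, 19.09 to 102.04 FPKM in IR and 5.92 to 24.03 FPKM in sham livers. Cd44, Plaur and Tnfaip6 are expressed by these cells among others, and the markers' part in the changes was not tested.

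For platelets, a known store of thrombospondin, 0 of 3 tested markers of 7 listed were called, Gp1bb was at 0 in every group, and the sums were 1.72 to 5.66 FPKM in IR-Ori, 3.19 to 7.16 FPKM in IR and 1.13 to 3.34 FPKM in sham livers. Of 10 stellate cell markers, Pdgfra and Pdgfrb were higher in IR than in sham livers and Pdgfra was lower in IR-Ori than in IR livers. Without a call in IR against sham livers, Dcn and Acta2 had positive log2 fold changes. Those of Lrat, Reln, Lum, Des, Ecm1 and Colec11 were negative, also without a call. The median log2 fold change of the stellate list was -0.11 for IR against sham and -0.42 for IR-Ori against IR. The stellate sums overlapped, at 41.55 to 89.53 FPKM in IR-Ori, 63.82 to 97.36 FPKM in IR and 54.85 to 82.42 FPKM in sham livers. Of 8 endothelial markers Pecam1 and Cdh5 were higher in IR than in sham livers and 0 were lower in IR-Ori than in IR livers, with sums of 12.84 to 32.08, 21.05 to 41.52 and 13.85 to 41.91 FPKM in IR-Ori, IR and sham livers. In IR against sham livers Oit3, Gpr182, Fcgr2b and Vwf were positive and Kdr and Clec4g negative, all without a call. The endothelial list medians were 0.19 for IR against sham and -0.39 for IR-Ori against IR. Of 4 tested cholangiocyte markers Sox9 alone was called, higher in IR than in sham and lower in IR-Ori than in IR livers. Kupffer cell, lymphocyte and hepatocyte markers had 0 calls in both comparisons, and none of the 7 mesothelial markers passed the filter on counts, with sums of at most 0.88 FPKM in IR-Ori, 0.64 FPKM in IR and 1.32 FPKM in sham livers.

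Gene by gene likeness was measured as the root mean square difference between a gene's standardised log2 CPM and the mean profile of the 8 tested genes over the 18 libraries, where 0 would be the same profile. The median over 11271 other genes was 1.28. The closest were Klf6 at 0.298 and Atf3 at 0.301, both stress-induced transcription factors, followed by the proteoglycan gene Srgn at 0.308, the lipopolysaccharide co-receptor Cd14 at 0.312 and Ch25h at 0.315. Hilpda (0.321), Hspb1 (0.330), Bmp2k (0.338), Il4ra (0.355) and Clec4d (0.359), the last also on the neutrophil marker list, completed the 10 closest. Klf6 averaged 3.52 ± 2.34 FPKM in IR-Ori, 39.3 ± 41.5 FPKM in IR and 1.86 ± 0.697 FPKM in sham livers (SD, n = 6 each). Of the 8 themselves, Thbs1 stood closest to their mean profile at 0.307 and Tnc next at 0.347, whereas Lox at 0.640 and Ccn2 at 0.696 stood farthest. The mean profile includes each of these 8 genes, so their own distances are a description only.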

How the data were processed

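Liver RNA-seq libraries (18 in 3 groups of 6) were grouped by their labels. RNA was prepared with the MagPure Universal RNA LQ Kit and the VAHTS Universal V8 library kit, per the labels' protocols, which do not state strandedness. The submitters' processing notes name cutadapt 1.9.1, HISAT2 2.2.1, DESeq2 and the build GRCm39. The deposited table holds the authors' read counts and FPKM per gene, with exonic gene sizes, and 37 of its genes are mitochondrial. Counts divided by gene size and library total returned 100% of the deposited FPKM within 0.0051.

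Counts were tested with edgeR 4.0.16 (R 4.3.3; filterByExpr with a minimum count of 10 and a minimum total of 15, TMM scaling, quasi-likelihood test with 1 factor for the 3 groups and 15 residual degrees of freedom). Benjamini-Hochberg adjustment ran over the 14595 genes tested at a threshold of 0.05. Folds are IR over sham, IR-Ori over IR and IR-Ori over sham, on the log2 scale with SE. Alternatives were DESeq2 1.42.0, limma 3.58.1 on log2(FPKM + 1) or log2(FPKM + 0.1) for genes of at least 1 FPKM in 6 libraries, other scaling and filters, a replicate block, the mitochondrial share as covariate, the compared groups alone, libraries split at a share of 15%, and leaving out each library. No 2 libraries were identical or within sampling noise (chi-square per gene at least 16.0 inside each group). Libraries of 12449529 counts or more still leave genes under about 1 FPKM with few counts, which limits their precision.

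The genes and lists were chosen with earlier results of these data known. In each wider list, the genes named for a comparison are those called among its 3 lowest p-values, or the lowest where none was called. Has2, Has3, Spp1 and Ccn4 are also given, chosen after their values were seen. Of the wider lists, 1 gene is not reported here and is left out of their counts. The 10 genes closest in profile were taken by rank.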

Additional observations from a re-analysis of the deposited data

Results flagged for a closer look

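Among the 30 combinations of gene and group, 7 had 1 library whose gap to the next exceeded Dixon's 95% critical share of the group's range. The rate of about 1 in 20 under chance holds for independent, normally distributed values. These FPKM were not log-transformed, some are 0, and the genes share libraries. The 7 are therefore flags only and cannot be read as an excess over that rate. Ccn1 in IR 6 stood at 132.58 FPKM, against 5.90 to 48.18 FPKM in the other IR libraries. Ankrd1 in the same library stood at 1.94 FPKM, against 0.19 to 0.52 FPKM. In sham livers, Ccn2 was at 3.31 FPKM in sham 1 (others 0.70 to 1.25 FPKM), Cd44 at 1.68 FPKM in sham 5 (others 0.65 to 1.00 FPKM) and Has1 at 0.03 FPKM in sham 4 (others 0 to 0.01 FPKM), the last resting on 2 counts. In IR-Ori livers, Tnc was at 0.20 FPKM in IR-Ori 4 (others 0.03 to 0.09 FPKM) and Tnfaip6 at 0.72 FPKM in IR-Ori 5 (others 0.13 to 0.34 FPKM). The causes were not tested.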

How the results depend on the processing

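The number of genes called in IR against sham livers (7 of 8 tested) was 4 of 5 tested under limma with either pseudocount and 0 of 8 among libraries with a mitochondrial share of 15% or more, and 6 to 9 of the 8 or 9 tested without 1 library. For IR-Ori against IR (6 of 8) it was 3 of 10 under limma without a filter, 0 of 8 among libraries with a share of 15% or more, and 4 to 7 of the 8 or 9 tested without 1 library. The calls lost there under limma without a filter were those of Ccn1, Tnc and Tnfaip6. The limma filter of at least 1 FPKM in 6 libraries also favours genes that are high in IR. Outside IR, Thbs1 and Plaur reached at most 0.97 and 0.99 FPKM, so both passed it through the IR libraries. Cd44 reached 1 FPKM outside IR in sham 5 and sham 6 only. Calls over all genes in IR against sham (1151) were 1818 with DESeq2, 594, 602 and 367 with limma (pseudocount 1, 0.1 and no filter), 1875 with the share as covariate and 14 at a share of 15% or more, and 581 to 1560 without 1 library. In IR-Ori against IR (526) they were 1330 with DESeq2, 133, 104 and 68 with limma, 290 with the covariate, 172 with the compared groups alone and 15 at a share of 15% or more, and 152 to 1056 without 1 library. IR-Ori against sham had 38 calls with DESeq2 against 0. Of the wider lists, IR against sham (21) had 10, 10 and 11 calls with limma and 0 at a share of 15% or more, and 14 to 22 without 1 library. IR-Ori against IR (10) had 23 with DESeq2, 1, 1 and 2 with limma, 5 with the compared groups alone and 1 at a share of 15% or more, and 4 to 18 without 1 library. Of the calls in IR-Ori against IR, 16.5% were higher with edgeR, 33.5% with DESeq2, 28.6%, 26.9% and 10.3% with limma, and 5.85 to 30.2% without 1 library. The causes were not tested.

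Whether replicate numbers pair the libraries is not given, and these values do not settle it. The correlations of same-numbered deviations ran from -0.441 to 0.418 over the 3 comparisons. For IR-Ori against IR all 6 were positive (0.0124 to 0.418) with 4 over 0.1. There numbers 1, 2 and 3 each correlated best with their own number, and 4, 5 and 6 did not. With a replicate block, calls over all genes were 644 (IR against sham) and 163 (IR-Ori against IR), those of the wider lists in IR-Ori against IR 5, and those of the 8 genes 6, 4 and 0 over the 3 comparisons. The calls lost under the block had adjusted p of 0.0634 (Lox, IR against sham), 0.0559 (Tnc) and 0.108 (Plaur, both IR-Ori against IR).

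Directions that turned were those of values that had passed no test. For IR-Ori against sham, Thbs1 was -0.051 under limma (pseudocount 0.1) and ran from -0.048 (without IR-Ori 3) to 0.588 without 1 library. Ccn1 was -0.072 with the replicate block and ran from -0.13 to 0.13 without 1 library, and Tnc ran from -0.051 (without IR-Ori 4) to 0.574. For IR-Ori against IR, Col5a1 was -0.048 with the covariate, and Ccn2 was 0.20 at a share of 15% or more. For IR against sham, Col5a1 was 0.15 under a share of 15% and Vtn was 0.084 at 15% or more. The libraries under 15% include 1 IR-Ori library, so its comparisons could not be run there.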
